A study of Homo sapiens with 4 samples.

Results

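HOX genes encode homeodomain transcription factors that give cells of the embryo their position along the head to tail axis. In human cells they stand in 4 clusters, HOXA to HOXD, and each gene carries the number of its paralog group, from 1 at the anterior end of the cluster to 13 at the posterior end. Genes are switched on in the order in which they stand, a property called collinearity, and the pattern is kept in adult cells and in cell lines as a record of where a tissue came from. The set described here holds every gene of the deposited count table with a symbol made of HOX, a cluster letter and a number. These were 39 of the 27011 genes in the table, with the antisense and other non-coding genes of the clusters left out.

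The libraries came from HEK293T cells, a line derived from human embryonic kidney and adenovirus-transformed, that also carries the SV40 large T antigen. The study asked how the transcriptome changes without HELZ, an RNA helicase with a zinc finger. It compared 2 WT libraries with 2 libraries of a Helz-null line. That line was made by CRISPR-Cas9 editing of WT HEK293T cells and carries a small frameshifting deletion in helz. Cells of both genotypes were left without treatment, and the replicates were biological replicates of 1 line per genotype. Hence the genotype and the history of the edited line cannot be told apart, and in bulk RNA fewer expressing cells and less RNA per cell cannot be told apart either.

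The libraries held between 41745401 and 70464140 counts. HELZ mRNA, the edited transcript, was measured at 99.8 and 104 CPM (counts normalised for library size, with TMM scaling) in WT and at 36.98 and 37.88 CPM in Helz-null cells (log2FC −1.44, SE 0.042, FDR = 2.13e-27). Of the 8 genes listed as typical of HEK293 cells, 7 were above 1 FPKM in every library, and LHX1 ranged from 0.782 to 1.92 FPKM. Their summed level was 139 to 143 FPKM in WT and 184 to 185 FPKM in Helz-null libraries, with NEFM (neurofilament) higher and INA (internexin) lower. Defining genes of differentiated kidney, blood, keratinocytes, hepatocytes and muscle summed to at most 1.04 FPKM per list, and of the fibroblast list COL1A1 alone exceeded 1 FPKM (2.42 to 2.70). The deepest libraries were WT replicate 1 and Helz-null replicate 2, 1 of each genotype.

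The 4 clusters lie on 4 chromosomes (GENCODE annotation on GRCh37, which has the coordinates of hg19). HOXA spans chromosome 7 from 27132612 to 27239710, with 11 genes on the minus strand. HOXB spans chromosome 17 from 46605888 to 46806112, with 10 genes on the minus strand. HOXC spans chromosome 12 from 54332615 to 54449814 and HOXD chromosome 2 from 176957449 to 177055635, each with 9 genes on the plus strand. The posterior genes therefore stand at the higher coordinates in HOXA and HOXB and at the lower coordinates in HOXC and HOXD.

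HEK293T cells expressed all 4 clusters and, summed over the clusters, most strongly the central and posterior genes. The central genes of HOXD were low, with HOXD8 at 2.80% and HOXD4 at 2.31% of that cluster's WT level. Levels are given as FPKM, here the TMM-scaled CPM divided by the deposited gene width in kilobases, so that genes of different length can be compared. The genes of groups 9 to 13 held 59.9% of the summed WT HOX FPKM, those of groups 4 to 8 held 34.4%, and those of groups 1 to 3 held 5.74%. By cluster, HOXA held 36.3%, HOXB 35.4%, HOXD 17.8% and HOXC 10.5%. With the deposited widths the gene with the highest level was HOXB9, followed by HOXD13, HOXB6, HOXA9 and HOXA5. The order depends on the length used. With the exon length of the annotation 7 of 11 HOXA, 5 of 10 HOXB and 2 of 9 HOXD genes changed rank within their cluster.

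**Figure D1:**
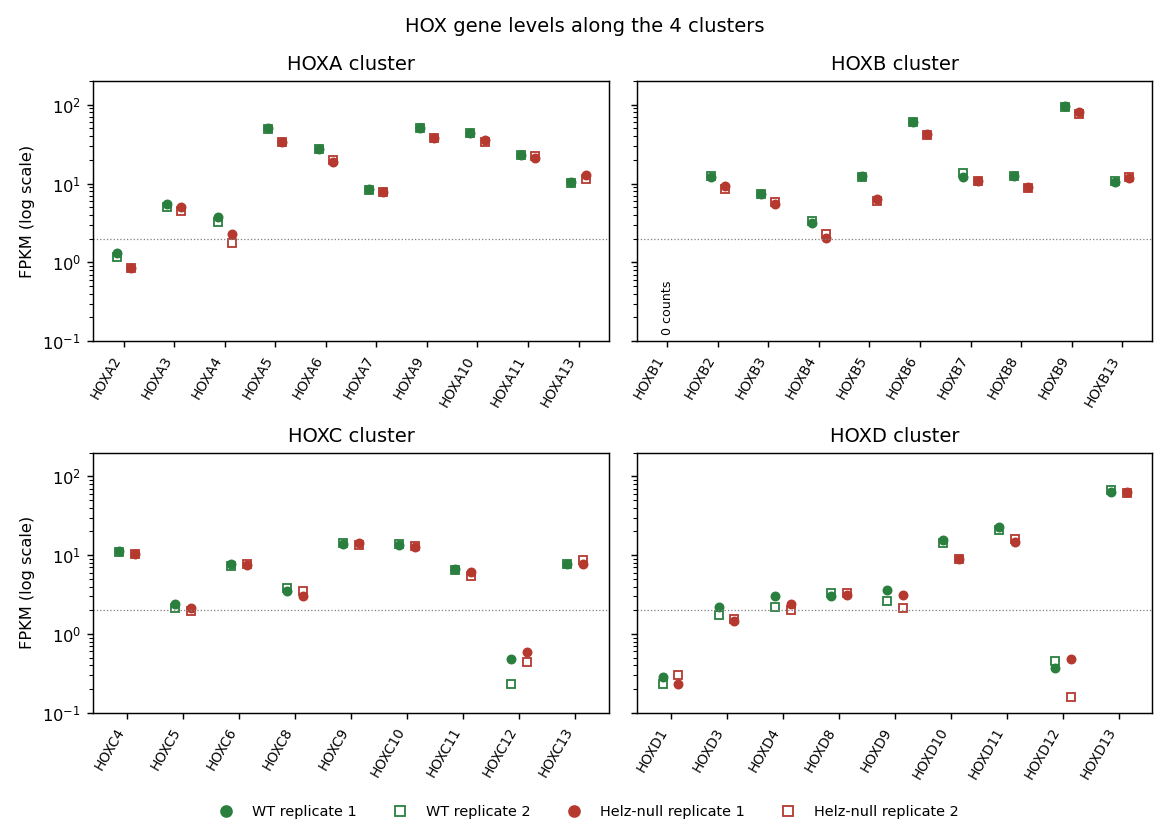
FPKM on a log axis of the HOX genes reported here in the 4 libraries, with genes placed from anterior to posterior in each cluster. Green marks are WT and red marks Helz-null libraries, circles are replicate 1 and open squares replicate 2. The dotted line is 2 FPKM, the study's limit for testing, and HOXB1 had 0 counts. HOXB9 stands highest (97.7 and 93.7 FPKM in WT), and in HOXA and HOXB most red marks lie below the green ones.

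Within HOXA the leading genes were HOXA9 (50.9 and 50.7 FPKM in the WT libraries), HOXA5 (50.6 and 49.0) and HOXA10 (44.2 and 44.4). HOXA9, a regulator of blood progenitors and a gene activated in acute myeloid leukaemia, held 21.9% of the cluster's FPKM. With the exon length of the annotation in place of the deposited width its share was 18.2%, and HOXA5 came first. HOXA6 (27.3 and 27.6 FPKM) and HOXA11 (23.3 and 22.8 FPKM) followed. The anterior HOXA2, which patterns the second pharyngeal arch, was lowest at 1.33 and 1.17 FPKM, 40.8-fold below HOXA9.

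In HOXB, HOXB9 held 42.1% of the cluster's FPKM and HOXB6 (60.2 and 59.8 FPKM) held 26.4%. HOXB7 and HOXB8 overlapped in level near 12.6 FPKM, as did HOXB2 and HOXB5 near 12.2 FPKM. HOXB1, which acts in the hindbrain, had 0 counts in all 4 libraries. If each count is independent, this allows up to 0.0426 CPM in the deepest and 0.0719 CPM in the shallowest library (3 counts, counting error only). The limits are higher if both mates of a pair were counted. The order in HOXB was thus not a simple gradient, since HOXB13, the most posterior gene, known from prostate, stood at 10.5 and 10.9 FPKM and well below HOXB9.

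HOXC was the most even of the clusters. HOXC9 (13.8 and 14.5 FPKM), HOXC10 (13.5 and 13.8 FPKM) and HOXC4 (11.2 and 10.9 FPKM) led, whereas HOXC12 gave 26 and 8 counts in WT and 21 and 26 counts in Helz-null cells. HOXD was the most uneven. HOXD13, the gene of distal limb and digit identity, held 57.6% of its FPKM at 63.6 and 67.7 FPKM, ahead of HOXD11 (23.1 and 20.7 FPKM) and HOXD10 (15.5 and 14.1 FPKM). The neighbour of HOXD13, HOXD12, was 160-fold lower than HOXD13. HOXD1, at the other end, was at 0.282 and 0.235 FPKM.

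Paralogs of 1 group were often carried by 1 or 2 clusters. HOXB2 made up 90.9% of the group 2 FPKM, HOXA5 77.4% of group 5 and HOXD13 69.5% of group 13. Group 11, which acts in metanephric kidney development, was shared by HOXA11 (44.7%), HOXD11 (42.5%) and HOXC11 (12.7%). Group 12 was close to silent in both of its clusters.

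In Helz-null cells the HOX genes were, as a set, lower than in WT cells, and the fall was strongest for HOXB5 and reached anterior, central and posterior genes of HOXA and HOXB. Of the 39 genes, 34 were in the study's list of 10978 genes, which it selected at above 2 FPKM, and could be tested. Of these 15 were down-regulated, 1 was up-regulated and 18 did not pass the test (edgeR quasi-likelihood F-test, FDR below 0.005, adjusted over all 10978 genes). Over all tested genes 15.5% were down-regulated and 13.9% up-regulated. The median log2FC of the 34 genes was −0.30, and that of all tested genes was −0.00091. Both Helz-null libraries lay below both WT libraries for 26 of the 34 genes, as they did for 35.7% of all tested genes, and above for 2, against 34.9% of all. The members were not drawn at random, so these shares are a description.

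**Figure D2:**
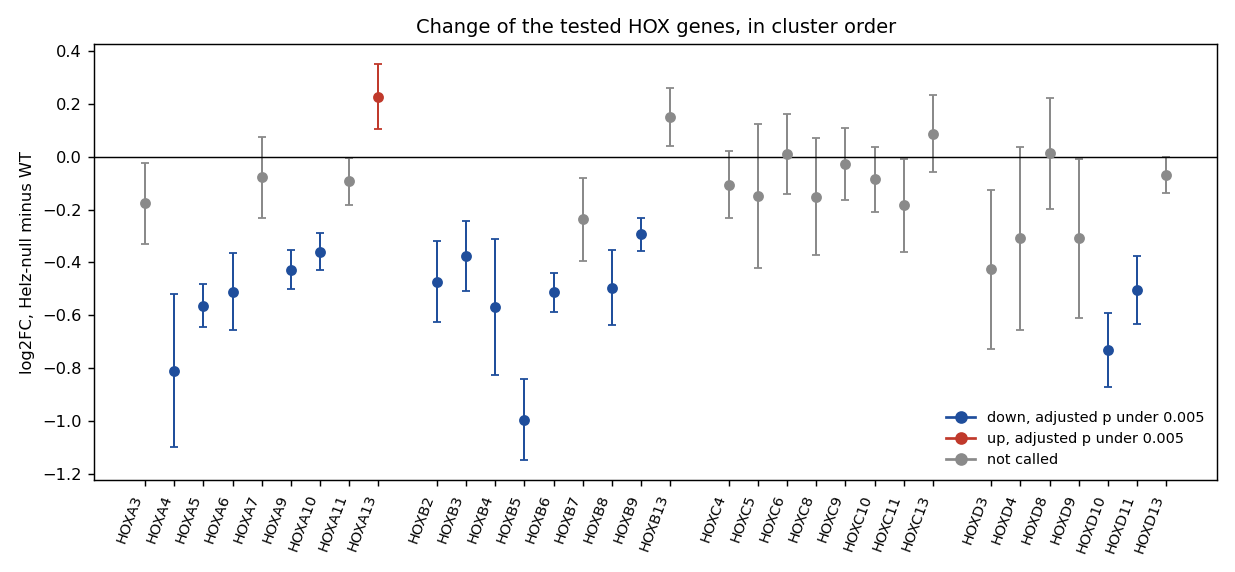
log2FC (Helz-null minus WT) of the tested HOX genes reported here in cluster order, with 95% confidence intervals from edgeR (2 libraries per genotype). Blue marks genes down-regulated and red the gene up-regulated at FDR below 0.005, grey the genes not called. The blue genes stand in HOXA, HOXB and HOXD, HOXB5 is lowest at −0.995, and the 8 HOXC genes lie between −0.18 and 0.087.

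The summed output of each cluster was lower in the Helz-null libraries, in HOXC only slightly. HOXA gave 234 and 231 summed FPKM in WT and 181 and 179 in Helz-null libraries, and HOXB gave 228 and 226 against 178 and 172. HOXD gave 115 and 113 against 98.1 and 96.0, and HOXC gave 67.0 in both WT libraries against 64.5 in both Helz-null libraries. On the scale of summed CPM the Helz-null level was 79.5% of WT in HOXA, 78.7% in HOXB, 87.3% in HOXD and 96.1% in HOXC. WT and Helz-null libraries did not overlap in any of these sums, and the difference between clusters was not tested. For HOXC the log2 ratio of summed CPM was −0.057 with TMM and −0.024 with library-size scaling, so its size depends on the scaling.

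Among the anterior genes, groups 1 to 3, 3 of 5 tested were down-regulated and none was up-regulated. Over all tested genes the shares were 15.5% and 13.9%. HOXB2, which acts in the hindbrain, went from 12.2 and 12.5 FPKM in WT to 9.43 and 8.51 FPKM in Helz-null cells (log2FC −0.47, SE 0.076, FDR = 2.49e-06). HOXB3 fell less, with 7.41 and 7.32 FPKM in WT and 5.43 and 5.88 FPKM in Helz-null cells (log2FC −0.38, SE 0.065, FDR = 9.38e-06). The libraries of WT and Helz-null cells did not overlap for either gene.

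HOXA3, needed for thymus and parathyroid, and HOXD3 also had lower values in both Helz-null libraries, but neither passed the test. HOXA3 had a log2FC of −0.18 (FDR = 0.0558) and HOXD3 one of −0.43 (FDR = 0.0178). HOXD3 rested on 137 to 321 counts per library. It passed the 2 FPKM limit in only 1 WT library (2.22 FPKM), and its FDR ranged from 0.00351 to 0.39 over the alternative analyses.

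All 15 central genes, groups 4 to 8, were tested, and 7 were down-regulated and none up-regulated. Over all tested genes the shares were 15.5% and 13.9%. Among the 7 was HOXB5, with the largest fall of all HOX genes. HOXB5 stands on chromosome 17 from 46668619 to 46671141, and only 3.9% of its exon bases are shared with an annotated antisense RNA, HOXB-AS3. It measured 12.3 and 12.1 FPKM in WT and 6.34 and 6.00 FPKM in Helz-null cells, which is 50.2% of the WT level (log2FC −0.995, 95% CI −1.15 to −0.84, FDR = 5.58e-14). Its neighbours on both sides fell by a smaller amount. HOXB4, a factor of blood stem cell expansion, had 3.13 and 3.34 FPKM against 2.01 and 2.29 FPKM (log2FC −0.57, FDR = 3.66e-04), and its call was lost without Helz-null replicate 1 (log2FC −0.49, FDR = 0.00772). HOXB6 had 60.2 and 59.8 FPKM against 42.8 and 41.4 FPKM (log2FC −0.51, FDR = 1.3e-14). The intervals of HOXB5 and HOXB6 (−0.59 to −0.44) did not overlap, and the difference between genes was not tested.

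HOXA5, the paralog of HOXB5 and a gene of lung and neck patterning, was among the most abundant HOX mRNAs and fell from 50.6 and 49.0 FPKM to 34.0 and 33.5 FPKM (log2FC −0.56, SE 0.041, FDR = 1.11e-14). HOXC5, the third paralog, was at 2.37 and 2.15 FPKM in WT and 2.15 and 1.98 FPKM in Helz-null cells and was not called (log2FC −0.15, FDR = 0.394, 95% CI −0.42 to 0.13). Summed over the group, Helz-null cells kept 65.3% of the WT level of group 5, the lowest percentage of the groups with tested genes.

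HOXA4 changed by a log2FC of −0.81 (95% CI −1.10 to −0.52, FDR = 1.18e-05), from 3.74 and 3.23 FPKM to 2.31 and 1.78 FPKM. It is a low gene, with 165 to 406 counts per library, and its log2FC ran from −0.98 to −0.60 when single libraries were left out. HOXA6 changed from 27.3 and 27.6 FPKM to 18.5 and 19.8 FPKM (log2FC −0.51, FDR = 1.87e-07), and HOXB8 from 12.6 in both WT libraries to 9.09 and 8.82 FPKM (log2FC −0.50, FDR = 1.95e-07). HOXA7, which lies beside HOXA6 in the same cluster, was not called, with 8.43 and 8.17 FPKM in WT against 7.88 and 7.87 FPKM (log2FC −0.08, 95% CI −0.23 to 0.074). HOXB7 had a log2FC of −0.24 and did not pass (FDR = 0.0125), although its Helz-null values (10.9 and 10.7 FPKM) stood below its WT values (12.1 and 13.5 FPKM).

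Reads of several of these genes may be shared with other transcripts. Of the exon bases of HOXA7, 62.5% are also exon bases of the antisense HOXA-AS3, as are 39.3% of those of HOXA6, and for HOXA11 27.2% lie in HOXA11-AS. HOXD10 and HOXD11 share 452 exon bases on the same strand. Further overlaps are those of HOXD8 with HOXD-AS2 (24.4%), HOXC4 with HOXC6 (17.5%), HOXB6 with HOXB3 (16.6%) and with HOXB-AS3 (16.3%), HOXA10 with HOXA10-AS (16.4%) and HOXA4 with HOXA-AS2 (14.7%). The annotation also has unnamed transcripts over 67.3% of the exon bases of HOXC5, 52.4% of those of HOXD1 and 31.3% of those of HOXA4. Whether reads were counted by strand is not given in the sources used here, so a gene and its antisense partner may share counts, and the values of these genes are uncertain to that extent. Other members have overlaps too.

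Of the posterior genes, groups 9 to 13, 14 were tested, 5 were down-regulated, 1 was up-regulated and 8 were not called. Over all tested genes 15.5% were down-regulated and 13.9% up-regulated. The difference between anterior, central and posterior genes was not tested. HOXD10, on chromosome 2 from 176973518 to 176984665 and known from hindlimb motor neurons, went from 15.5 and 14.1 FPKM to 9.01 and 8.90 FPKM (log2FC −0.73, 95% CI −0.87 to −0.59, FDR = 1.65e-11). HOXD11 went from 23.1 and 20.7 FPKM to 14.8 and 16.0 FPKM (log2FC −0.50, FDR = 1.79e-08). They were the only genes of HOXD called.

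The most abundant HOX mRNAs of groups 9 and 10 fell as well. HOXA9 had 50.9 and 50.7 FPKM in WT and 37.7 and 37.9 FPKM in Helz-null cells (log2FC −0.43, SE 0.036, FDR = 8.51e-13). HOXA10, a gene of uterine identity, had 44.2 and 44.4 FPKM against 35.7 and 33.6 FPKM (log2FC −0.36, FDR = 3.09e-11). HOXB9 had 97.7 and 93.7 FPKM against 79.9 and 76.4 FPKM (log2FC −0.29, SE 0.031, FDR = 3.15e-10). HOXA11 was not called, with 23.3 and 22.8 FPKM against 20.8 and 22.3 FPKM (log2FC −0.09, 95% CI −0.18 to −0.0031, FDR = 0.0865).

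None of the 4 tested genes of group 13, the most posterior group, was down-regulated, against 15.5% of all tested genes. HOXA13, on chromosome 7 from 27233122 to 27239710, was the one HOX gene called up-regulated, at 10.4 and 10.2 FPKM in WT and 12.8 and 11.5 FPKM in Helz-null cells (log2FC 0.23, SE 0.061, FDR = 0.0025). That call was lost with DESeq2 (FDR = 0.0154), without WT replicate 2 (FDR = 0.00558) and without Helz-null replicate 1 (log2FC 0.16, FDR = 0.107), within a range of 4.7e-04 to 0.107 over the alternatives. HOXB13 was at 10.5 and 10.9 FPKM against 11.7 and 12.0 FPKM (log2FC 0.15, FDR = 0.0215) and was not called, although the libraries did not overlap. HOXC13 (log2FC 0.09, FDR = 0.346) and HOXD13 (log2FC −0.07, FDR = 0.0958) were not called. The summed FPKM of group 13 was 92.2 and 96.6 in WT and 95.7 and 93.8 in Helz-null libraries, which overlapped.

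The share of the group 13 gene within its cluster was higher in both Helz-null libraries than in both WT libraries in each cluster, and least so in HOXC. HOXA13 made up 4.45% and 4.41% of the HOXA FPKM in WT and 7.05% and 6.40% in Helz-null cells. HOXB13 made up 4.62% and 4.82% of HOXB against 6.60% and 6.98%. HOXC13 made up 11.5% and 11.6% of HOXC against 12.0% and 13.4%. HOXD13 made up 55.4% and 59.8% of HOXD against 64.7% and 64.2%. With group 13 left out, Helz-null cells kept 77.4% of the WT summed CPM of HOXA, 76.5% of HOXB, 94.6% of HOXC and 72.3% of HOXD.

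None of the 8 tested HOXC genes was called in either direction. Over all tested genes 29.4% were called, and 8 genes are few to set beside that share. Their log2FC ran from −0.18 (HOXC11) to 0.087 (HOXC13), with a median of −0.095. The intervals of the better measured genes were narrow, and that of HOXC4 was −0.23 to 0.021, of HOXC9 −0.16 to 0.11 and of HOXC10 −0.21 to 0.039. The point estimates of HOXB5, HOXD10 and HOXA4 lie outside the interval of each tested HOXC gene. HOXC8, a gene of the thoracic region, had 3.51 and 3.83 FPKM in WT against 3.01 and 3.50 FPKM in Helz-null cells (log2FC −0.15, FDR = 0.272). HOXC6 and HOXC9 changed sign between alternatives, within −0.062 and 0.051.

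In HOXD, HOXD4 (log2FC −0.31, FDR = 0.142) and HOXD9 (log2FC −0.31, FDR = 0.0905) had overlapping libraries and were not called. HOXD9 had 3.62 and 2.65 FPKM in WT and 3.16 and 2.14 FPKM in Helz-null cells. Its replicates of 1 genotype differed by more than the means of the genotypes did (3.13 FPKM in WT and 2.65 FPKM in Helz-null cells). When single libraries were left out the log2FC of HOXD9 ran from −0.58 to −0.013. It was called down-regulated without WT replicate 2 (FDR = 0.00392) and without Helz-null replicate 1 (FDR = 0.00241), and its log2FC was nearest 0 without Helz-null replicate 2 (FDR = 0.966). That of HOXD4 ran from −0.49 without WT replicate 2 to −0.037 without WT replicate 1. HOXD8 was at 3.05 and 3.33 FPKM against 3.12 and 3.27 FPKM (log2FC 0.01, FDR = 0.931).

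The other 5 genes were outside the tested list. HOXA2 went from 1.33 and 1.17 FPKM to 0.844 and 0.847 FPKM, and the libraries did not overlap. When 16087 genes kept by the edgeR function filterByExpr were fitted, of which 11.5% were down-regulated and 9.83% up-regulated, HOXA2 had a log2FC of −0.57 (SE 0.21, FDR = 0.0306) and was not called. HOXC12 (8 to 26 counts), HOXD1 (19 to 41 counts) and HOXD12 (9 to 19 counts) gave overlapping libraries, so no change was detectable at this depth, and HOXB1 had 0 counts.

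Of the 17 tested HOX genes with the higher WT FPKM 11 were down-regulated, with a median log2FC of −0.43. Of the 17 with the lower FPKM 4 were, with a median of −0.18. Over all tested genes, which were not split by level, 15.5% were down-regulated, and more counts make a call easier. The difference between these sets was not tested. The genes called down-regulated and those not called had similar GC content in the coding sequence (medians 62.6% and 62.1%) and similar lengths of the 3′ UTR (medians 856 and 887 bases). The median GC content of the 3′ UTR was 43.7% for genes called down-regulated and 49.1% for those not called, a difference that was not tested.

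The clusters also encode microRNAs that are known to act on HOX mRNAs. The miR-196 family is encoded within HOXA, HOXB and HOXC and represses HOX transcripts through sites in the 3′ UTR. Their mature sequences (RefSeq, GRCh38.p14) are shown with the seed, bases 2 to 8, in capitals, because the seed decides which HOX mRNAs carry a site. Both forms have the same seed.
hsa-miR-196a-5p: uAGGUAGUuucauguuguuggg
hsa-miR-196b-5p: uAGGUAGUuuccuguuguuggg

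The 3′ UTR of the canonical transcript of each HOX gene was searched on the mRNA strand for the 7 bases complementary to the seed, ACTACCT. A match is a description of the sequence and not a measured site. The miR-196 match was found 14 times in 8 HOX genes, HOXA5, HOXA7, HOXA9, HOXB1, HOXB6, HOXB7, HOXB13 and HOXC8. It occurred in 7.98% of the 3′ UTRs of 10103 tested genes. HOXA7 held 4 matches and HOXC8 held 3. For comparison, 1 match is shown for a gene that fell strongly, 1 for a gene with a small change and 1 for a gene of the uncalled HOXC cluster, with the match in capitals (GRCh37, mRNA strand).
HOXA5: gatatttttattcaaACTACCTa
HOXA7: tcgaggcacccccaaACTACCTa
HOXC8: acactcacaactctaACTACCTg

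Genes with a match and genes without one were both among the down-regulated. Of the 7 tested HOX genes with a miR-196 match 3 were down-regulated (HOXA5, HOXA9 and HOXB6), with a median log2FC of −0.24. Of the 27 without one 12 were down-regulated and 1 up-regulated, with a median of −0.31. HOXA7, with the most matches, and HOXC8 were not called. For miR-10a, another microRNA of HOXB, 3 tested HOX genes held a match, of which 2 were down-regulated, with a median of −0.38, and the 31 without one had a median of −0.29. That match occurred in 14.4% of the 3′ UTRs of tested genes. The share down-regulated over all tested genes was 15.5%, and the HOX genes lay above it with and without a match. Mature microRNAs were not measured in these libraries, and the precursor genes gave at most 16 counts each (MIR10B).

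Among the long non-coding RNAs of the clusters, HOTAIRM1, at the anterior end of HOXA, fell from 23.8 and 22.6 FPKM to 17.0 and 17.7 FPKM (log2FC −0.42, SE 0.068, FDR = 3.22e-06). HOTAIR, transcribed from HOXC and known as a partner of Polycomb, was at 2.88 FPKM in both WT libraries against 2.82 and 2.61 FPKM (log2FC −0.09, FDR = 0.532). HAGLR of HOXD was not called either (log2FC −0.07, FDR = 0.581). The read-through gene HOXA10-HOXA9 fell by a log2FC of −0.46 (FDR = 4.78e-13), but its counts (2919 to 6293) come near those of HOXA9 (3204 to 6578), with which it shares sequence, so it is no separate observation.

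The antisense RNAs lay outside the tested list and were read from the fit with filterByExpr. In that fit 11.5% of all genes were down-regulated and 9.83% up-regulated. Several of these RNAs were well above 2 FPKM, such as HOXA10-AS at 51.4 and 53.2 FPKM in the WT libraries. Why the list left them out is not given in the sources used here. HOXA10-AS (log2FC −0.39, FDR = 8.74e-08), HOXA-AS3 (log2FC −0.30, FDR = 1.78e-04) and HOXB-AS3 (log2FC −0.56, FDR = 3.19e-07) were down-regulated, and each overlaps exons of HOX genes of HOXA or HOXB. HOXA11-AS (FDR = 0.00829) and HOXA-AS2 (log2FC −0.67, FDR = 0.0168) were not called. The antisense RNAs HOXC-AS1, HOXC-AS2, HOXC-AS3 and HOXC13-AS of HOXC and HOXD-AS2 of HOXD were not called, and neither were HOTTIP of HOXA (log2FC −0.35, FDR = 0.412) and HOXB-AS1 of HOXB (log2FC −0.30, FDR = 0.295). In all, the non-coding genes that fell belonged to clusters in which coding HOX genes fell, and because strand may not have been used their counts are not independent of those genes.

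Within 1 Mb of the clusters 61 other genes were tested, of which 9 were up-regulated and 9 down-regulated, with a median log2FC of 0.013. These shares are near those of all tested genes (13.9% and 15.5%). Beside HOXA, SKAP2 (log2FC −0.01, FDR = 0.921), an adaptor protein gene and the nearest tested neighbour on the anterior side, was not called, and TAX1BP1, an autophagy receptor gene, was up-regulated (log2FC 0.21, FDR = 2.07e-06). Beside HOXB 5 of 23 were up-regulated and none down-regulated, among them OSBPL7 (log2FC 0.56), FAM117A (log2FC 0.34) and SNF8 (log2FC 0.24). PRAC2, which lies inside the HOXB span next to HOXB13, was not called (log2FC 0.48, FDR = 0.152).

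Beside HOXC, the cluster without calls, 3 of 26 neighbours were up-regulated and 7 down-regulated, against 13.9% and 15.5% of all tested genes. They included the keratin gene KRT8 (log2FC −0.98, FDR = 7.13e-15), CALCOCO1 (log2FC 0.57, FDR = 1.8e-09) and RARG (log2FC −0.37, FDR = 1.30e-04). Beside HOXD 2 of 4 were down-regulated by small amounts, KIAA1715 (log2FC −0.16, FDR = 9.35e-04) and ATP5G3 (log2FC −0.12, FDR = 6.97e-04), and MTX2 was not called (log2FC −0.03). Without Helz-null replicate 2 the calls of KIAA1715 (FDR = 0.0527), ATP5G3 (FDR = 0.0197) and RARG (FDR = 0.0056) were lost. The number of down-regulated neighbours was 4 without Helz-null replicate 1 and 2 without Helz-null replicate 2.

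**Figure D3:**
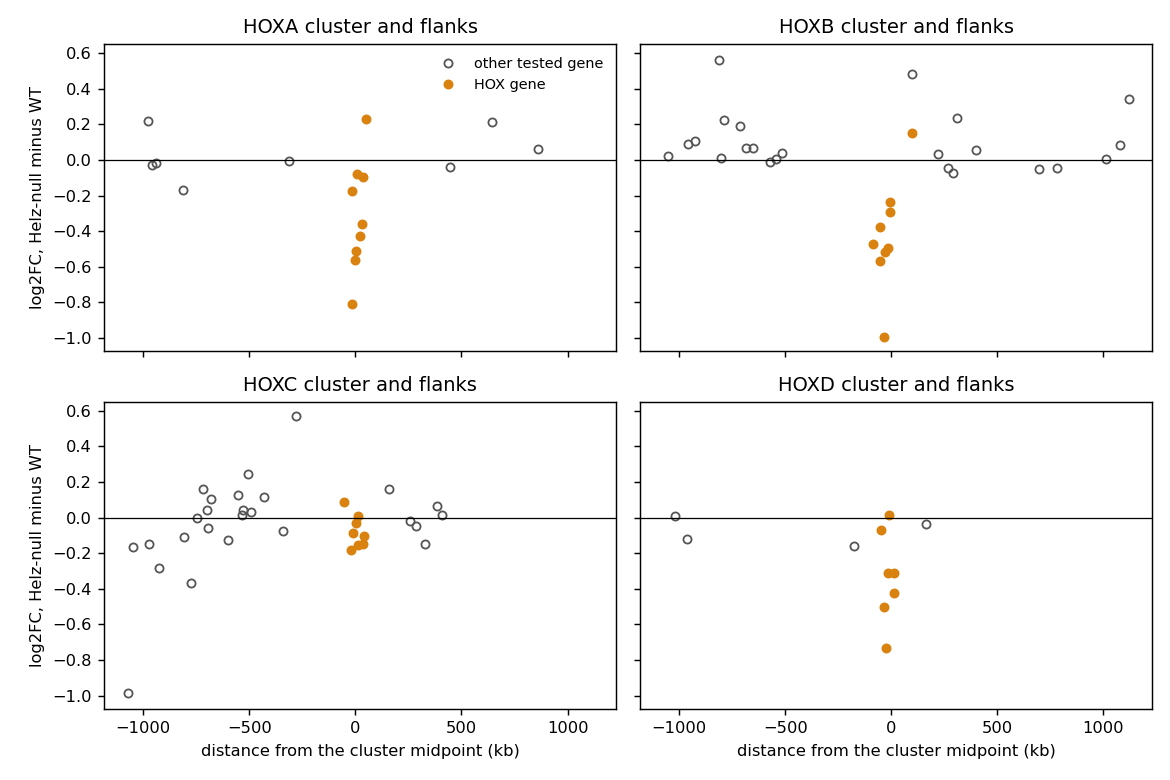
log2FC (Helz-null minus WT) of the tested HOX genes reported here (filled, orange) and of other tested genes within 1 Mb (open, grey) against the distance of the gene's middle from the cluster's midpoint in kb, in chromosome order. In HOXA, HOXB and HOXD the orange points reach down to −0.81, −0.995 and −0.73, and the open points lie on both sides of 0, from KRT8 at −0.98 to CALCOCO1 at 0.57, both beside HOXC.

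HOX genes are opened in the embryo by retinoic acid and by CDX factors. Of the 21 genes listed for these inputs 13 were tested, 5 were down-regulated and none was up-regulated, against 15.5% and 13.9% of all tested genes. ALDH1A2, the main retinoic acid synthase of the embryo, fell furthest, from 12.5 and 12.2 FPKM to 3.21 and 3.01 FPKM (log2FC −2.00, SE 0.063, FDR = 1.67e-26). CYP26A1, the retinoic acid hydroxylase, had 1.59 and 2.08 FPKM against 1.03 and 0.984 FPKM (log2FC −0.84, FDR = 4.95e-05). RARB, a retinoic acid receptor, had 1.92 and 2.14 FPKM against 1.14 in both Helz-null libraries (log2FC −0.83, FDR = 4.53e-07). CYP26A1 and RARB are textbook genes induced by retinoic acid. Both passed the 2 FPKM limit in WT replicate 2 only, so they entered the test through the genotype in which they were high, and the count of 5 is no support for a direction of the list.

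DHRS3, a retinaldehyde reductase, was also lower (log2FC −0.56, FDR = 1.25e-04), and so was RARG (log2FC −0.37). Other genes of the same input were not called, among them the receptors RARA (log2FC 0.06, FDR = 0.41) and RXRA (log2FC 0.16, FDR = 0.00537), the second synthase ALDH1A3 (log2FC 0.15) and the binding protein CRABP2 (log2FC 0.08). CDX2, the one CDX gene expressed, was not called, with 17.6 and 17.7 FPKM in WT against 17.6 and 17.2 FPKM (log2FC −0.02, 95% CI −0.12 to 0.080). CDX4 and CRABP1 had 0 counts in every library. Of the listed genes outside the tested list, the fit with filterByExpr called the receptor gene RXRG up-regulated at 0.324 and 0.361 FPKM in WT against 0.582 and 0.732 FPKM (log2FC 0.97, FDR = 0.00239). The retinaldehyde dehydrogenase gene ALDH1A1, with 9 to 35 counts, was not called (log2FC 1.60, FDR = 0.00725).

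HOX proteins bind DNA with PBX and MEIS partners. Of 9 cofactor genes 8 were tested, with 2 called in each direction, against 13.9% up-regulated and 15.5% down-regulated over all tested genes. MEIS3 rose from 6.93 and 7.17 FPKM to 9.75 and 10.9 FPKM (log2FC 0.56, FDR = 4.80e-08). PKNOX1 fell (log2FC −0.33, FDR = 2.42e-06). MEIS2 was called down-regulated at log2FC −0.20 (FDR = 0.00480), close to the limit, and the call was lost without each library except WT replicate 1 and under several other settings (FDR up to 0.105).

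The Polycomb and Trithorax groups keep HOX genes off or on. Of 34 Polycomb genes 33 were tested, with 6 up-regulated, 4 down-regulated and a median log2FC of 0.061. Over all tested genes 13.9% were up-regulated and 15.5% down-regulated, so the Polycomb counts are near the background. EZH2, the H3K27 methyltransferase, had 24.6 and 24.5 FPKM in WT and 29.2 and 29.7 FPKM in Helz-null cells (log2FC 0.26, FDR = 2.54e-07). RING1 (log2FC 0.24), JARID2 (log2FC 0.22) and PCGF2 (log2FC 0.21) also rose, and CBX6 (log2FC −0.23), PCGF5 (log2FC −0.22), RYBP (log2FC −0.21) and BAP1 (log2FC −0.11) fell. Without Helz-null replicate 1 the call of JARID2 was lost (FDR = 0.00607), and without Helz-null replicate 2 that of PCGF2 (FDR = 0.0118). The call of BAP1 was lost in 5 of its alternatives.

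Of 17 Trithorax and H3K27 demethylase genes 3 were up-regulated, KMT2C (log2FC 0.30), MEN1 (log2FC 0.26) and HCFC1 (log2FC 0.12), the last not without Helz-null replicate 1 (FDR = 0.0647). KMT2A, the methyltransferase that maintains HOX expression, was not called (log2FC 0.12, FDR = 0.017). Among 12 genes of CTCF and cohesin, which set the borders of HOX domains, STAG2 rose from 59.6 and 59.5 FPKM to 89.7 and 88.3 FPKM (log2FC 0.58, FDR = 2.26e-20), and WAPL (log2FC −0.37) and SMC3 (log2FC −0.24) fell, whereas CTCF itself was not called (log2FC 0.03, FDR = 0.567). Over all 88 tested genes of the 6 lists 14 were up-regulated and 13 down-regulated, shares near those of all tested genes.

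**Figure D4:**
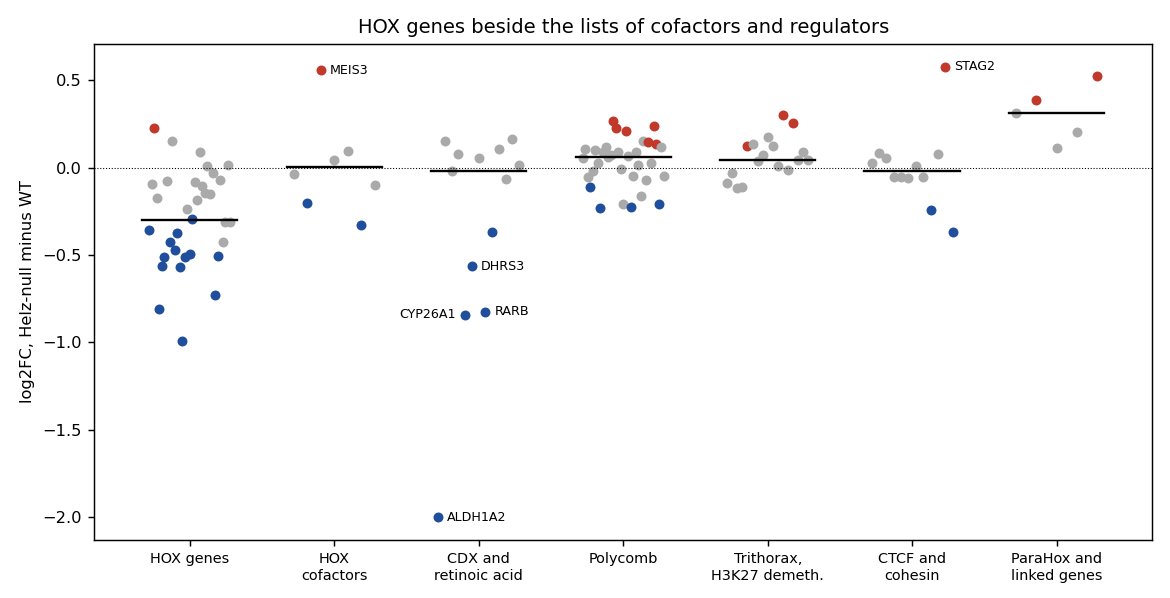
log2FC (Helz-null minus WT) of tested genes in the HOX set and in the 6 lists of cofactors and regulators, 1 point per gene reported here. Blue is down-regulated, red up-regulated and grey not called at FDR below 0.005, the short line is the median over all tested members, and genes of the lists beyond 0.55 in size are named. The HOX median lies at −0.30, and ALDH1A2 stands apart at −2.00.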

How the data were processed

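RNA-Seq was made from total RNA of untreated HEK293T cells, in 2 WT and 2 Helz-null libraries. Per the labels and the study's methods, the authors removed ribosomal reads with Bowtie2, aligned the remaining pairs to hg19 (TopHat2) and used QuasR for counting. One deposited table gives raw counts and a gene width for 27011 symbols, and the values here start from these counts. Whether mates and strands were counted separately is not given in the sources used here. In each library more genes had 2 counts (748 to 807) than 1 count (623 to 647), as arises when both mates of a pair are counted. A count may therefore be a read and not a fragment, and the floors of 3 counts and the counting variance refer to reads. Apart from these floors, CPM and FPKM do not depend on this. A second deposited table holds the authors' own comparison (log2 ratios and mean levels, with p-values raw and adjusted) for 10978 genes above 2 FPKM. Only its gene names were used, as the tested set.

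Counts were fitted with edgeR 4.0.16 in R 4.3.3 (TMM, quasi-likelihood F-test, Benjamini-Hochberg over 10978 genes, FDR below 0.005), which was tested on simulated data. FPKM was the TMM-scaled CPM divided by the width in kb. Depth was 41745401 to 70464140 counts per library, and TMM factors were 0.987 to 1.01. The pooled biological coefficient of variation was 2.60%, and WT and Helz-null replicates differed by 4.15 and 3.01 times the counting variance, so no library was a copy. Intervals are 95% intervals of the fit. Exact permutation of 2 against 2 libraries cannot give a p below 0.333 and was not used. Positions, exon overlaps and 3′ UTRs came from GENCODE on GRCh37. The RefSeq promoter table matched too few HOX genes and was not used.

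The members, lists and tests were chosen with earlier results of these data known, and no p was adjusted over a list alone. Named were HELZ, the HOX genes, the non-coding genes of the clusters, up to 4 called genes with the largest change per list and direction, and up to 3 per flank. Single results of 1 HOX gene and 1 cofactor gene are not reported here, although both enter the counts, sums and medians. SKAP2, PRAC2, MTX2, CDX2, CDX4, RXRG, PDX1, ALDH1A1, CRABP1, CRABP2, RARA, RXRA, ALDH1A3, KMT2A, CTCF, the antisense RNAs outside the tested list and the marker genes were named after their values were seen. Alternatives were library-size scaling, RLE factors, DESeq2 1.42.0, the likelihood ratio test, other filters, a replicate block, an FDR limit of 0.05, another gene length and leaving out each library.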

Additional observations from a re-analysis of the deposited data

How the results depend on the processing

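The 15 falls among HOX genes were called under all 12 alternatives fitted across genes, apart from HOXB4 without Helz-null replicate 1 (log2FC −0.49, FDR = 0.00772). Leaving out each library gave 15 to 17 down-regulated and 0 to 1 up-regulated HOX genes. The count of up-regulated HOX genes was 2 with library-size scaling, 0 with DESeq2 and 2 at an FDR limit of 0.05, where 2371 of all tested genes were up-regulated. A call was gained by HOXB7 (FDR = 0.00309) and HOXD13 (FDR = 0.00492) without WT replicate 1, by HOXD3 (FDR = 0.00439) and HOXD9 (FDR = 0.00392) without WT replicate 2, and by HOXB13 (FDR = 0.00479) with library-size scaling. The median HOX log2FC was −0.25 with the replicate block and −0.34 to −0.22 when a library was left out. The deviations of equally numbered libraries correlated at 0.034 across genes, so no shared pattern was seen. Whether equally numbered libraries were prepared together cannot be told from this value. The replicate block changed no HOX call and gave 15 down-regulated HOX genes. With library-size scaling the log2 ratio of summed CPM was −0.30 for HOXA, −0.31 for HOXB, −0.024 for HOXC and −0.16 for HOXD, and without single libraries that of HOXD ran from −0.21 to −0.18. Down-regulated flanking genes numbered 4 with library-size scaling, 5 with DESeq2 and 2 to 11 without single libraries. With annotated exon length HOXA9, HOXB9, HOXC9 and HOXD13 held 18.2%, 50.6%, 22.9% and 63.2% of their clusters. Signs turned for genes near 0, none of them called. When libraries were left out the log2FC ran from −0.020 to 0.051 for HOXC6, from −0.062 to 0.0088 for HOXC9, from −0.0055 to 0.157 for HOXC13, from −0.056 to 0.074 for HOXD8 and from −0.187 to 0.042 for HAGLR, and with library-size scaling that of HOXC9 was 0.0047. The cause of these changes was not tested. HOXC12, HOXD1 and HOXD12, with at most 41 counts per library, could show only large changes.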

Other observations

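Of the 10 ParaHox and other cluster-linked homeobox genes 5 were tested and 2 were up-regulated, with a median log2FC of 0.31. Over all tested genes 13.9% were up-regulated and 15.5% down-regulated, so 5 genes are too few to read a direction for the list. Outside the tested list, the ParaHox gene PDX1 was called up-regulated in the fit with filterByExpr, with 210 and 122 counts in WT against 203 and 337 counts in Helz-null libraries of other depth (log2FC 0.61, FDR = 0.00112). MNX1, a motor neuron factor, rose from 4.06 and 3.88 FPKM in WT to 5.65 and 5.78 FPKM in Helz-null cells (log2FC 0.52, FDR = 3.06e-06). EN2, a midbrain and hindbrain boundary gene, rose from 26.1 and 26.9 FPKM to 33.9 and 35.1 FPKM (log2FC 0.38, FDR = 1.11e-11). The libraries of the 2 genotypes did not overlap for either gene.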
